A study of Mus musculus with 2 samples.

Results

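The basal keratinocytes described here are skin cells that carried transcripts of the basal layer of the epidermis and none of Lhx2 or Tbx1, the hair follicle markers of the gene panel. They numbered 5995 of the 70658 cells kept over 2 tissue sections, 3070 of 33263 in the WT section and 2925 of 37395 in the Utx-cKO section. A cell was a member where it held at least 20 transcripts and at least 5 of Krt5, Col17a1 and Itga6 together, with no more of the spinous genes Krt1, Krt77 and Dsg1a than of those 3. It also had to hold no Lhx2 or Tbx1, fewer than 2 transcripts of the upper follicle keratin Krt79, fewer than 3 of the cycle genes Mki67, Top2a and Cdk1, and fewer than 5 of the granular genes Lce1m, Hal, Flg2, Alox12b and Sdr9c7. These 17 genes chose the cells, so their values describe the choice only. Just inside the limit, 564 WT and 620 Utx-cKO members held exactly 5 basal marker transcripts, and just outside it 612 and 760 cells held 4.

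Both sections were 5 µm slices of formalin-fixed whole skin from female B6/129 mice, read with Xenium, an assay that decodes RNA molecules in place in the tissue, here with a custom panel of 480 genes. In the Utx-cKO section the histone demethylase gene Kdm6a, also called Utx, had been deleted with Krt14-Cre, a recombinase driven by the keratin-14 promoter, which acts in basal epidermis and hair follicles alike. The other section is labelled WT control; the sources used here do not say whether it carried Cre, how many mice there were or how old they were. Each group was 1 section, so no difference between the groups has a replicate check and no test was made. The tissue of each section lay in 4 strips, of mice that are not named, and values per strip describe the spread within a section.

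Basal keratinocytes line the basement membrane, to which hemidesmosomes of integrins, the collagen Col17a1 and the linker Dst attach them. They divide, and their daughters move up into the spinous layer, where Krt1 takes the place of Krt5, and then into the granular layer, which makes the cornified barrier. The outer root sheath of the hair follicle is continuous with this layer and shares its keratins.

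The sections held 3540184 and 2875112 gene transcripts, of which 74.7% in WT and 84.9% in Utx-cKO lay in segmented cells. Members held a median of 69 transcripts in WT and 59 in Utx-cKO, over median cell areas of 58.6 and 60.6 µm². The strips' medians ran from 51 to 86 and from 47 to 69 transcripts. Levels are given as CPM, counts per 1000000 panel transcripts of the members, and ratios as log2 of Utx-cKO over WT with a 95% exact interval that covers counting error only. Ratios are given for genes with at least 100 counts over both sections, and a gene was called higher or lower at 1.5-fold or more. Probes differ in efficiency, so levels are not compared between genes. The brightest of 20 negative control probes reached 55.3 CPM in WT members and 120.2 CPM in Utx-cKO members. A segmented cell can hold transcripts of its neighbours, so ratios from transcripts over the nucleus alone are given for some genes. For genes without such a value, the ratio over the nucleus can differ too. All 3 markers of the rule were present in 46.0% of WT members and 42.0% of Utx-cKO members.

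Kdm6a, the deleted gene, was read at nearly the same level in the members of both sections. Its WT strips had 3300.2, 2794, 3569 and 2302 CPM and its Utx-cKO strips 2649.9, 3336, 3516 and 2267 CPM, with a log2 ratio of -0.06 (-0.22 to 0.10). The strips overlapped. The sources used here do not say where the probes lie relative to the deleted part, so these transcripts do not check the deletion. The related demethylase gene Kdm6b had WT strips at 1782, 1969.9, 1814 and 1877 CPM and Utx-cKO strips at 2455, 1976, 2945 and 2133 CPM (0.38, 0.19 to 0.57). Its strips did not overlap, though the nearest pair lay close together, and the ratio was under 1.5-fold. The methyltransferase gene Kmt2a was at 0.01, and 0 of 8 chromatin genes were called in either direction. Over all genes 8.61% were called higher and 4.3% lower, so 0 of 8 tells little.

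The basal keratinocytes lay both close to the granular layer and far from it. Distance to the nearest cell with at least 5 granular transcripts had a median of 17.2 µm in WT and 20.4 µm in Utx-cKO. In WT 941 members lay within 10 µm, 664 at 10 to 20 µm, 353 at 20 to 50 µm, 628 at 50 to 100 µm and 435 at 100 to 150 µm. The distances had no clear gap, so the limit of 50 µm used here divides a continuous range. Within 50 µm lay 1958 of 3070 WT members, 63.8% (95% Clopper-Pearson interval 62.1 to 65.5), and 1752 of 2925 Utx-cKO members, 59.9% (58.1 to 61.7). These are called upper cells here, and they traced a thin line along each strip. The others, called deep cells, lay at median distances of 95.3 µm and 109.7 µm, in small separate groups mostly to one side of that line. Upper shares per strip ran from 58.1% to 65.9% in WT and from 49.1% to 71.8% in Utx-cKO, which overlap.

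**Figure D1:**
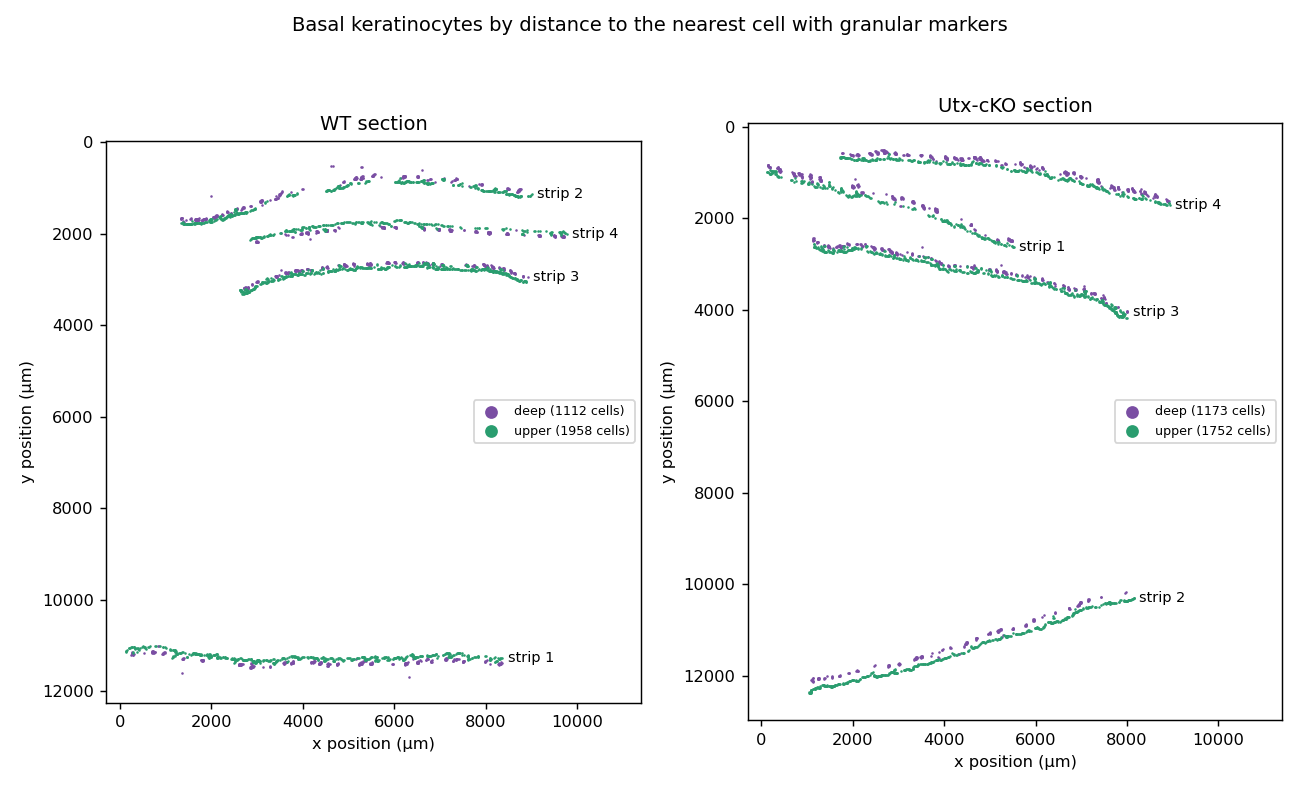
Positions of the basal keratinocytes in each section, in µm on both axes, with upper cells (within 50 µm of a cell with granular markers) in green and deep cells in purple. In all 4 strips of both sections the upper cells, 1958 in WT and 1752 in Utx-cKO, trace a line along the strip, and the deep cells, 1112 and 1173, form separate groups mostly on one side of that line.

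The label of cells outside the Lhx2 follicle was set against the neighbours of the members. Of the 10 nearest cells of an upper cell, 26.2% had granular markers in WT and 23.1% in Utx-cKO, and 2.92% and 1.31% were basal marker cells with Lhx2 or Tbx1. Around deep cells 27.3% and 23.9% were cells with Lhx2 or Tbx1, which goes against the label for these cells. The limit of 50 µm itself keeps granular cells from the neighbours of deep cells, so their shares describe that limit only. Those Lhx2 or Tbx1 cells lay mostly deep themselves: 15.1% in WT and 6.92% in Utx-cKO were within 50 µm of a granular cell, against 97.1% and 98.7% of spinous cells.

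Deep members and deep cells with Lhx2 or Tbx1 also had nearly the same panel profile. In a comparison added after the data were seen, 195 genes had enough counts in both sections. Beside Lhx2 and Tbx1, which the rule sets to 0 in members, no gene was at least 1.5 times higher in the Lhx2 or Tbx1 cells in both sections (1.03% of genes called higher with those 2 included). Acsl4, Ahr, Apod, Scd1 and Arhgdib were lower (2.56% of genes). The fatty acid ligase gene Acsl4 had the lowest ratios, -1.06 in WT and -1.67 in Utx-cKO. Serpinb11, a clade B serpin that marked the deep cells, differed by 0.09 in WT and -0.15 in Utx-cKO. Krt15, a keratin of basal and follicle stem cells, differed by 0.02 in WT and 0.11 in Utx-cKO. The deep members are therefore called by their markers and place only, as deep basal marker cells. Without the limit on place, Lhx2 or Tbx1 cells were at least 1.5 times higher than members in both sections for 36 of 270 genes (13.3%) and lower for 78 (28.9%). Genes of the rule, Lhx2 and Tbx1 among them, were not left out of these counts. Duox1, Dct, Lef1 and Phlda1 led the first group, and Wnt3, Lor, Ivl and Il1r2 the second.

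Upper and deep members differed across much of the panel. Of 236 genes measured in both sections, 68 were at least 1.5 times higher in upper cells in both (28.8%) and 39 in deep cells (16.5%). Genes of the rule were not left out of these counts. With transcripts over the nucleus only, 45 were higher in upper cells. Krt5, one of the genes of the rule, was level with depth, at 0.02 in WT and 0.03 in Utx-cKO. Itga6, another, was not: it stood at 14713 CPM in upper and 5213 CPM in deep WT cells, and at 15462 and 5594 CPM in Utx-cKO.

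Genes highest in upper cells held both signals of the surface epidermis and granular genes. The ligand gene Wnt3 had 1515 CPM in upper WT cells and 62.4 CPM in deep ones, from 235 and 5 counts, and 2143 CPM from 254 counts against 2 counts in Utx-cKO. The decoy receptor gene of interleukin-1, Il1r2, had log2 ratios of 3.45 in WT and 4.45 in Utx-cKO. The loricrin gene Lor and the hornerin gene Hrnr, both of the cornified envelope, were also among them, Lor with 4.33 in WT and 4.02 in Utx-cKO. Pla2g2f, Irf4, Dsc1 and Alox5ap completed the 8 highest. Granular cells were 26.2% and 23.1% of the nearest cells here, and the part of their transcripts in the Lor and Hrnr values was not tested.

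Genes highest in deep cells were Dct, Serpinb11, Ptn, Cryab, Aqp3, Enpp1, Postn and Mitf. Postn, which encodes a matricellular protein, had 46769 CPM in deep and 7369.5 CPM in upper WT cells, with log2 ratios of upper over deep of -2.67 in WT and -2.10 in Utx-cKO. The growth factor gene Ptn had -2.71 in WT and -3.08 in Utx-cKO. Dct and Mitf are genes of the pigment cell. A transcript of Dct, Pmel or Mlana was found, after thinning each cell to 20 transcripts, in 3.33% of deep WT cells and 3.24% of deep Utx-cKO cells, against 0.868% and 0.742% of upper cells. Unthinned, these shares were 7.37% and 6.48% of deep cells, and 2.45% and 2.05% of upper cells.

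**Figure D2:**
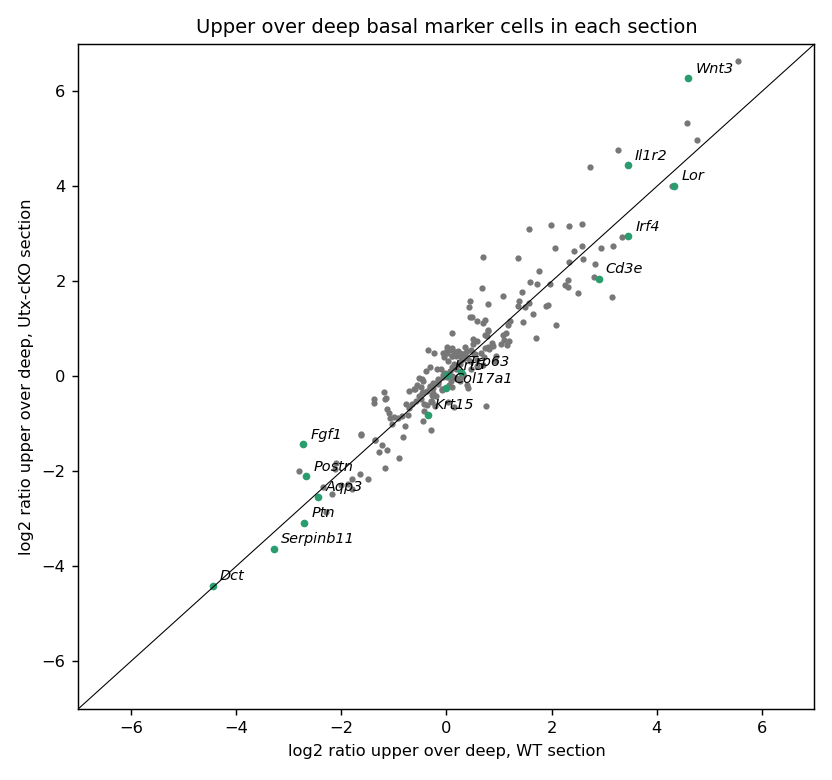
Log2 ratio of upper over deep basal marker cells for each of 236 genes, WT section on the x axis and Utx-cKO section on the y axis, with the line of equal ratios. Wnt3 and Lor lie at the upper right and Dct and Serpinb11 at the lower left in both sections, while Krt5 lies near 0 in both.

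Set against spinous cells, chosen by the mirrored rule (more Krt1, Krt77 and Dsg1a than Krt5, Col17a1 and Itga6), the members held the adhesion genes of the basement membrane. Of 267 genes, 77 were at least 1.5 times higher in basal cells in both sections (28.8%) and 50 lower (18.7%). The genes that chose the 2 sets were not left out of these counts, and their direction describes the choice only. Members here include the deep cells, while 97.1% of WT and 98.7% of Utx-cKO spinous cells lay within 50 µm of a granular cell. The ratios of this comparison therefore mix place with layer, and their parts were not tested. The laminin gene Lamb3 had log2 ratios of 1.37 in WT and 1.89 in Utx-cKO, the integrin gene Itgb1 1.13 in WT and 1.25 in Utx-cKO, and Dst 0.76 in WT and 1.07 in Utx-cKO. Krt15 was higher by 0.78 in WT and 1.11 in Utx-cKO. Trp63, the master factor of stratified epithelia, was under 1.5-fold at 0.19 in WT and 0.25 in Utx-cKO. The 8 highest were Serpinb11, Ptn, Postn, Enpp1, Dct, Aqp3, Cryab and Tm4sf1, and 7 of them are the deep cell genes above. Over the nucleus only, 47 genes were higher.

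The genes lowest in basal against spinous cells were Dsc1, Abca12, Acer1, Acsl1, Elovl4, Crct1, Lor and Mboat2. They include the desmosomal cadherin Dsc1, at -2.26 in WT and -2.37 in Utx-cKO, and the lipid transporter Abca12, at -2.05 in WT and -2.40 in Utx-cKO. Elovl4, which lengthens the fatty acids of barrier ceramides, was at -2.05 in WT and -1.91 in Utx-cKO. Sbsn, a suprabasal secreted protein, stood at -1.01 in WT and -1.24 in Utx-cKO, and the receptor gene Notch3 at -0.77 in WT and -0.99 in Utx-cKO. These genes belong to the layers above the basal one.

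Members were a smaller share of keratinocytes in the Utx-cKO section. Among cells with any keratinocyte marker of the rule at its minimum, 29.1% were members in WT (28.2 to 30.0, 3070 of 10558) and 23.2% in Utx-cKO (22.4 to 23.9, 2925 of 12627). WT strips had 30.4%, 28.9%, 27.7% and 29.6%, and Utx-cKO strips 25.8%, 26.6%, 21.1% and 21.8%, so the strips did not overlap. Granular cells were also a smaller share of these keratinocytes, at 22.6% in WT and 15.7% in Utx-cKO. Spinous cells were a larger one, at 10.9% in WT and 13.1% in Utx-cKO. Keratinocytes in none of the sets named here count in the whole too. The members' share therefore also depends on how many of those there were, and their part in the difference was not tested. Of all kept cells members were 9.23% and 7.82%, where strips overlapped (7.62% to 11.3% and 6.55% to 9.39%). Cells were deeper in WT, and the rule counts transcripts: with each cell thinned to 20 transcripts and a marker minimum of 2, the shares were 56.1% and 49.7% of keratinocytes, and with a minimum of 10% of a cell's transcripts 27.7% and 23.8%. By that last rule members were 8.11% and 7.90% of kept cells.

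Between the sections, members were compared with upper and deep cells together. Of 302 genes, 26 were at least 1.5 times higher in Utx-cKO (8.61% of genes compared) and 13 lower (4.3%). The median log2 ratio was 0.03 over all genes compared. Outside the rule, 25 of 289 genes were higher and 13 lower. Taken as mean counts per cell, every log2 ratio shifts by -0.23, and the split becomes 11 higher and 48 lower. The count of lower genes also rests on strips: leaving out Utx-cKO strip 3 gave 34, WT strip 1 gave 21, and WT strip 2 or Utx-cKO strip 2 gave 20. For 13 genes (4.3%) the strips of the sections did not overlap. In 2.65% of genes every Utx-cKO strip was higher, Krt16, Krt17, Notch1, Itgb1, Kdm6b, Pltp and Sox17 among them, and Axl, Duox1, Fgf1, Gpx1 and Prdx5 lower (1.66%).

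Stress keratins and small proline-rich genes were the list with most genes called higher: 5 of 8 compared members were called higher and 0 lower, with a median log2 ratio of 0.85, against 8.61% called higher and a median of 0.03 over all genes. The list was drawn up with earlier results of these data known, so its direction is no independent evidence. Krt16, a keratin of wounded and overgrowing epidermis, had 212, 107, 212 and 106 CPM in the WT strips and 351, 468, 376 and 999 CPM in the Utx-cKO strips, from 40 and 108 counts. No WT strip reached the lowest Utx-cKO strip, and Utx-cKO strip 4 was the highest. The log2 ratio was 1.73 (1.20 to 2.29). Upper cells gave 25 and 54 of these counts and deep cells 15 and 54, too few for a ratio in each place. Krt16 was sparse: thinned to 20 transcripts, 0.326% of WT members and 0.991% of Utx-cKO members held a transcript, and unthinned 1.14% and 2.60%. Its level in WT members, 170.0 CPM, compares with 55.3 CPM for the brightest control probe.

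Krt17, a keratin of the follicle and of stressed epidermis, was abundant in both sections. WT strips had 17666, 16385, 10897 and 13207 CPM and Utx-cKO strips 25564, 22973, 18391 and 21175 CPM (0.57, 0.50 to 0.63), just short of 1.5-fold. Its strips did not overlap, and WT strip 3 was the lowest. The third stress keratin, Krt6b, was at 0.14, and 1.01 without WT strip 3.

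The Sprr2a genes encode cross-linked proteins of the cornified envelope. Sprr2a1 had 2277, 2199, 1213 and 2479 CPM in WT strips and 3001, 6312, 1908 and 4746 CPM in Utx-cKO strips (1.04, 0.87 to 1.22). Sprr2a2 had 1324, 2382, 813 and 1381 CPM and 2338, 6907, 1022 and 3632 CPM (1.22, 1.03 to 1.41). For both, Utx-cKO strips 2 and 4 were the highest and strip 3 lay among the WT strips, as did Utx-cKO strip 1 for Sprr2a2. Without Utx-cKO strip 2, Sprr2a2 was at 0.61. Sprr2a3 was at 1.08, and at 0.56, under 1.5-fold, without that strip. Over the nucleus only, the 3 genes were at 0.76, 0.87 and 0.89. Sprr2b and Sprr1a, of the same family, were at 0.93 and 0.65, and Sprr1a was 0.30 without Utx-cKO strip 3.

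The start regions of the Sprr2a genes are shown because these regions share most of their letters. In RefSeq (GRCm38.p6) the 300 bases around the start of Sprr2a1 and of Sprr2a2 are the same letter for letter, and those of Sprr2a3 hold the same run shifted by 28 bases, identical over 272 bases. The 250 bases before the starts of Sprr2a1 (chr3:92215585-92215834, plus strand) and Sprr2a3 (chr3:92285054-92285303, plus strand) read as follows, with capitals for the 28 bases that the other window does not hold. Sprr2a2 (chr3:92250397-92250646, plus strand) has the letters of Sprr2a1.
Sprr2a1: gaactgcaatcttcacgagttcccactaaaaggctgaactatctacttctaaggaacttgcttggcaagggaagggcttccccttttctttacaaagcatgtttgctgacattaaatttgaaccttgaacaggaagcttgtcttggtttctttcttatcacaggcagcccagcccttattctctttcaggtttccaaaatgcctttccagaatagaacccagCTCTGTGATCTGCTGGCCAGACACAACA
Sprr2a3: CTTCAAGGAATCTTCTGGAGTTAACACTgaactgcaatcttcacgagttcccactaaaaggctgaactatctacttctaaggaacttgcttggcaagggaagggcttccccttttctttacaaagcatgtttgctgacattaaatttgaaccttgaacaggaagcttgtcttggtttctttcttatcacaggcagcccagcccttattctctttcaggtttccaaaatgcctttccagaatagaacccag
The AP-1 motif TGANTCA, searched on both strands, has no match in the 3 windows, and 6.75% of 32851 such RefSeq windows hold it. Their transcripts were not compared and the probes' places are not known here, so whether the probes tell these genes of one family apart was not tested, and their counts are also given together.

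Counted together, the Sprr2a genes were found in more upper cells of the Utx-cKO section than of the WT section. After thinning to 20 transcripts, a Sprr2a1, Sprr2a2 or Sprr2a3 transcript was found in 8.32% (7.14 to 9.64) of upper WT cells and 16.4% (14.7 to 18.3) of upper Utx-cKO cells. Strips ran from 3.48% to 11.7% and from 6.37% to 24.0%, with WT strip 3 and Utx-cKO strip 3, which are not matched, the lowest of their sections. In deep cells the shares were 4.41% (3.28 to 5.78) and 5.63% (4.38 to 7.10). Unthinned, upper cells had 24.8% and 36.9%, and deep cells 12.8% and 13.4%. The layers above differed the same way, with thinned shares of 9.10% and 15.0% in spinous cells and 5.35% and 10.6% in granular cells. The log2 ratio of Sprr2a1 was 1.20 (1.01 to 1.39) in upper cells and 0.58 (0.17 to 0.99) in deep cells, the latter from 88 and 119 counts. Sprr2a2 was at 1.44 (1.23 to 1.65) in upper cells, and deep cells held 50 and 43 counts, too few for a ratio. In upper cells Sprr2a2 ran from 0.88 without Utx-cKO strip 2 to 1.96 without Utx-cKO strip 3.

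**Figure D3:**
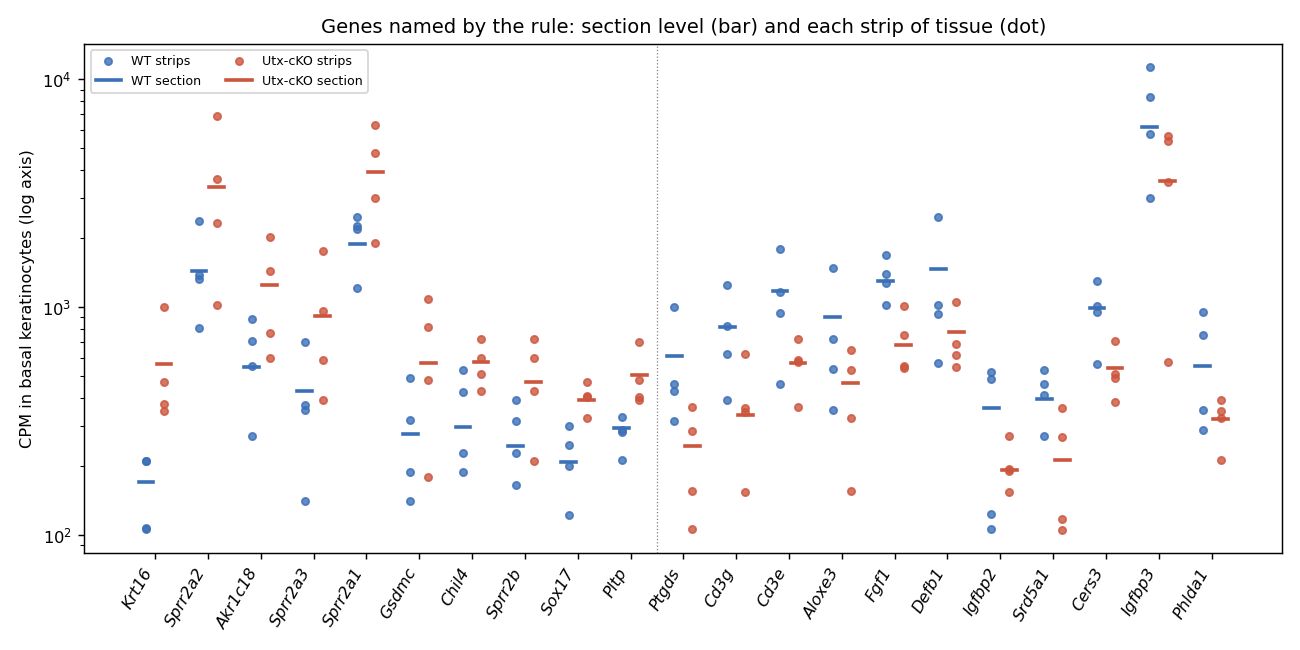
Level in the members, upper and deep cells together, in CPM on a log axis. Genes named as higher in Utx-cKO lie left of the dotted line and genes named as lower right of it. A bar marks each section and a dot each of its 4 strips. Krt16 and Sox17 have no overlap between the strips of the sections, while for Sprr2a2 and Gsdmc the strips overlap.

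Of 181 genes with enough counts in both upper and deep cells, 25 had log2 ratios at least 1.5 times apart between the 2 places. Upper cells alone had 23 genes higher (8.78% of 262) and 19 lower (7.25%), and deep cells alone 10 higher (5.18% of 193) and 16 lower (8.29%). Strips did not overlap in upper cells for 8 genes higher in Utx-cKO (3.05%), Itgb1, Kmt2d, Krt17, Notch1, Pkm, Rara, Tfrc and Tyrobp, and 2 lower (0.763%), Axl and Rbp2. In deep cells these were Cxadr, Itgb1 and Tap2 above (1.55%) and Fgf1, Mitf, Ptgds and Thy1 below (2.07%). This split was added after the data were seen. Notch1, Igfbp3, Fgf1 and Krt15, described next, were chosen from it and from the lists after their values were seen.

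Notch1, the receptor that starts spinous differentiation, was higher in upper cells of the Utx-cKO section. Upper WT strips had 4676, 5638, 4992 and 4500.1 CPM and upper Utx-cKO strips 9196, 9298, 9149 and 6928 CPM. The strips did not overlap, and Utx-cKO strip 4 was the nearest to WT. The ratio was 0.79 (0.65 to 0.92) in upper cells and -0.11 (-0.30 to 0.07) in deep cells, a difference of 0.90 (0.67 to 1.13). By distance, WT members had 4558 CPM within 10 µm of granular cells, 7565 CPM at 50 to 100 µm and 4679 CPM at 100 to 150 µm. Utx-cKO members had 8553, 6948 and 5238 CPM there. Spinous cells had a Notch1 ratio of 0.61 (0.43 to 0.78), and granular cells 0.58 (0.46 to 0.70). Over all members Notch1 was at 0.47, and 0 of 8 early differentiation genes outside the rule were called, with a median of 0.12. The shares over all genes were 8.61% higher and 4.3% lower, so 0 of 8 tells little. The Notch target gene Hes1 was at 0.33 and the factor gene Klf4 at -0.18. Krt1, a gene of the rule, was at 0.72, and at 0.34 without Utx-cKO strip 2.

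Igfbp3, whose product binds insulin-like growth factors, was lower in upper Utx-cKO cells. Upper WT strips had 5689.5, 10776, 3736 and 13109 CPM and upper Utx-cKO strips 6659, 435, 3706 and 3579.7 CPM. The strips overlapped, and Utx-cKO strip 2 was far below every other strip. The ratio was -1.26 (-1.44 to -1.09) in upper and 0.11 (-0.11 to 0.33) in deep cells, a difference of -1.37 (-1.65 to -1.09). Over all members it was -0.78, and under 1.5-fold without Utx-cKO strip 2 (-0.43) or WT strip 2 (-0.56). The layers above were lower too, with -1.30 (-1.54 to -1.05) in spinous cells and -2.14 (-2.36 to -1.93) in granular cells. In upper cells it stayed past 1.5-fold without any 1 strip, from -1.62 to -0.79. Thinned to 20 transcripts, 10.1% of upper WT cells and 5.25% of upper Utx-cKO cells held it, and unthinned 26.4% and 12.9%.

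Fgf1, an acidic fibroblast growth factor, was lower in deep Utx-cKO cells. It was mostly a gene of deep cells, at 2943 CPM in deep and 445 CPM in upper WT cells. Deep WT strips had 3247, 2698, 2826 and 3176 CPM and deep Utx-cKO strips 1533, 1655, 1069 and 729 CPM. The strips did not overlap, and the ratio was -1.40 (-1.79 to -1.03) in deep and -0.11 (-0.66 to 0.44) in upper cells. The difference between the places was 1.30 (0.66 to 1.94). In cells with Lhx2 or Tbx1 the Fgf1 ratio was -1.64. With Igfbp2 (-0.90), 3 of 5 growth control genes outside the rule were called lower, against 4.3% of all genes, with 0 higher. This list too was drawn up with earlier results of these data known, so its count is no independent evidence. Ccnd1 and Myc, regulators of cycle entry, were at -0.06 and 0.23. Igfbp2 rests on 85 and 37 counts, and was at 0.11 over the nucleus only, from 10 and 9 counts.

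**Figure D4:**
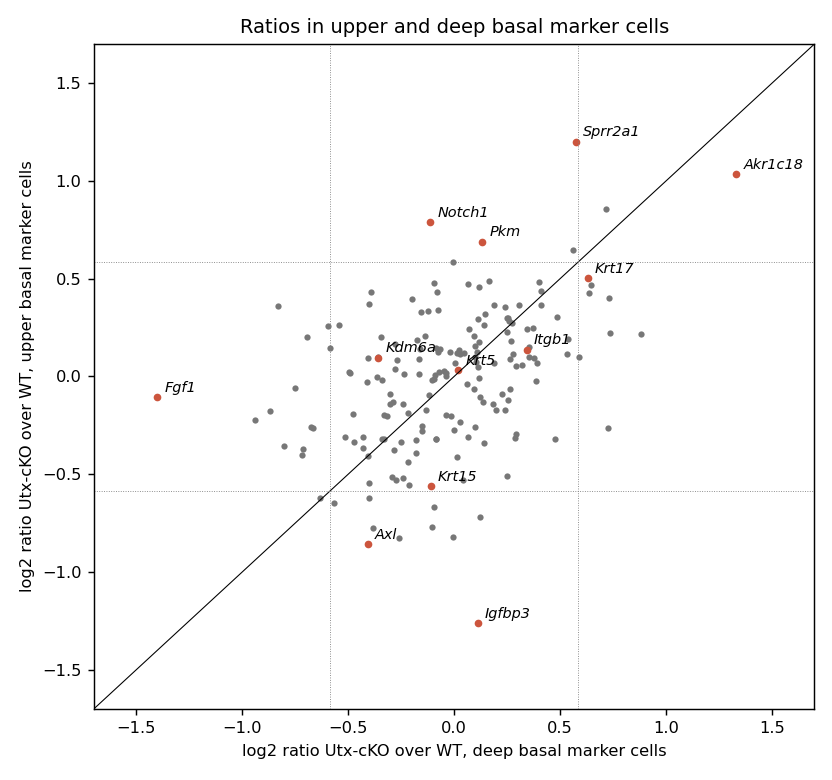
Log2 ratio of Utx-cKO over WT in deep (x axis) and upper (y axis) basal marker cells for each of 181 genes, with dotted lines at 1.5-fold and the line of equal ratios. Notch1 and Igfbp3 lie past the lines in upper cells (0.79 and -1.26) and not in deep cells (-0.11 and 0.11), Fgf1 in deep cells (-1.40) and not in upper cells (-0.11), and Krt5 near 0 in both.

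The genes of basal identity and attachment were all under 1.5-fold over all members. Of 4 basal identity genes outside the rule, 0 were called (median -0.17), and of 3 hemidesmosome and basement membrane genes 0 were called (median 0.02). Over all genes 8.61% were called higher and 4.3% lower, so 0 calls among so few genes tell little. Krt15 had 66480, 86476, 84759 and 91141 CPM in WT strips and 72951, 41674, 69734 and 75553 CPM in Utx-cKO strips (-0.33, -0.36 to -0.30), with Utx-cKO strip 2 lowest. In upper cells Krt15 was at -0.56 (-0.61 to -0.52), with -0.36 when Utx-cKO strip 2 was left out, and in deep cells at -0.11 (-0.16 to -0.06). In spinous cells it was at -0.66 (-0.72 to -0.59) and in granular cells at -1.03 (-1.08 to -0.98). Thinned to 20 transcripts, 74.2% (72.2 to 76.1) of upper WT and 61.6% (59.3 to 63.9) of upper Utx-cKO cells held Krt15, and the upper strips overlapped (66.2% to 80.0% and 46.4% to 73.6%). Unthinned, the shares were 93.9% and 86.8%.

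Dst had a ratio of -0.23 (-0.28 to -0.18) over all members and -0.32 in upper cells. Itgb1 was narrowly higher in each Utx-cKO strip, at 4442, 4463, 4553 and 4746 CPM against 3812, 3939.8, 4088 and 3505 CPM (0.22, 0.09 to 0.36). Trp63 was at -0.15 (-0.24 to -0.05), and the factor genes Tfap2a and Tfap2b at 0.29 and -0.20. Lamb3 was at 0.02. The rule's own markers stood at 0.03 for Krt5, 0.20 for Col17a1 and 0.03 for Itga6, as described values.

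**Figure D5:**
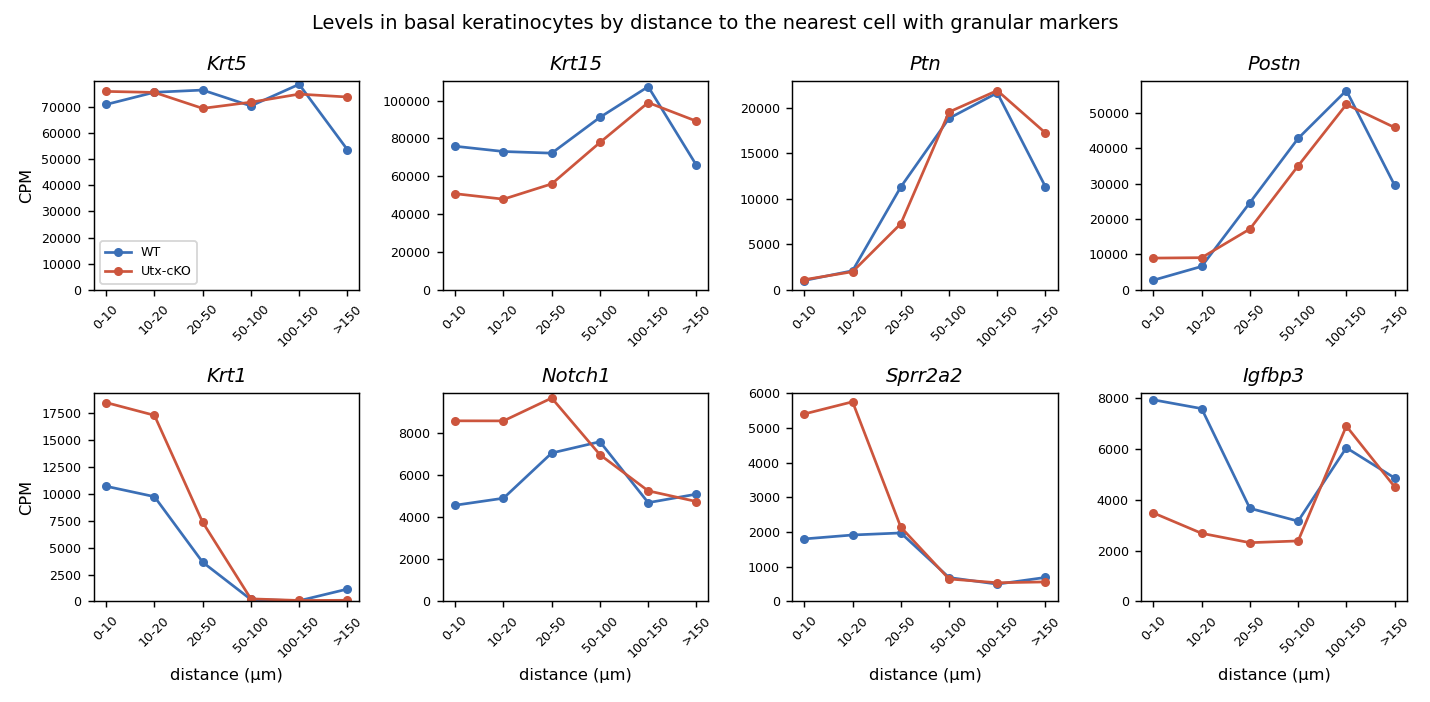
Level in the members, upper and deep, in CPM, by distance in µm to the nearest cell with granular markers. WT is blue and Utx-cKO red. The points are the section's pooled cells in each distance range, and the farthest range holds 49 WT and 162 Utx-cKO cells. Krt5 is level within 150 µm, and Ptn and Postn are high beyond 50 µm. The sections part near the surface for Krt15, Notch1, Sprr2a2 and Igfbp3. Postn parts there too, with 2732 CPM in WT and 8971.5 CPM in Utx-cKO within 10 µm. At 20 to 50 µm Postn goes the other way, with 24624 and 17180 CPM. Krt1 is a gene of the rule.

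T cell receptor genes were lower in Utx-cKO members. Cells with at least 2 Cd3d, Cd3e or Cd3g transcripts, counted without thinning, were also a smaller share of their neighbours. Cd3e, a chain of the receptor complex, had 1165, 1802, 942 and 460.3 CPM in WT strips and 585, 574, 721 and 365 CPM in Utx-cKO strips (-1.05, -1.38 to -0.72), and Cd3g was at -1.29 (-1.73 to -0.88). The strips overlapped for both. Of the 6 T cell markers on the panel 3 were compared and 2 called lower, against 4.3% of all genes. The third, Thy1, was not called. Summed, the 6 markers stood at 5279 CPM in WT and 3962 CPM in Utx-cKO. Their sum ran from 3470 to 8399 CPM over WT strips and from 3497 to 4793 CPM over Utx-cKO strips, with no marker at 0. Thinned to 20 transcripts, 3.09% (2.51 to 3.77) of WT members and 1.64% (1.21 to 2.17) of Utx-cKO members held a Cd3d, Cd3e or Cd3g transcript, and unthinned 8.18% and 4.58%. In spinous cells the thinned shares were 3.55% and 1.64%. In granular cells, which should lack them, the thinned shares were 1.59% and 0.755%, and 1.72% and 1.14% as the mean over all possible draws of 20 transcripts, against 3.16% and 1.72% in members. Granular cells were deeper, with medians of 124 and 106 transcripts against 69 and 59 in members.

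These transcripts lay mostly in upper members. Thinned, 4.70% (3.80 to 5.73) of upper WT cells and 2.28% (1.64 to 3.10) of upper Utx-cKO cells held one. In deep cells the thinned shares were 0.27% (0.0557 to 0.786) and 0.682% (0.295 to 1.34). As the mean over all possible draws they were 4.52% and 2.44% in upper cells, and 0.777% and 0.644% in deep cells. The order of the sections turned in deep cells, so the single draw does not order them there. Unthinned, 11.4% and 6.28% of upper cells and 2.52% and 2.05% of deep cells held one. Among the 10 nearest cells of an upper member, 4.07% in WT and 1.74% in Utx-cKO held at least 2 such transcripts. These neighbours were counted without thinning, and members and granular cells were deeper in WT. Whether they belong to the members or to neighbouring T cells was not tested.

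The remaining named higher genes have varied roles. Akr1c18, a steroid dehydrogenase, had 882, 549.7, 271 and 708 CPM and 1442, 595, 2028 and 769 CPM (1.19, 0.88 to 1.51). The strips overlapped, and Utx-cKO strip 3 was highest. Without that strip its ratio was 0.62 over all members, and in upper cells it was -0.12 in place of 1.03. In deep cells, from 53 and 121 counts, it was 1.33 (0.85 to 1.83). There it ran from 0.90 to 1.85 when any 1 strip was left out, and the strips overlapped.

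The gasdermin gene Gsdmc was at 1.04 and at 0.54 without Utx-cKO strip 2. Upper cells gave 55 of its 65 WT counts and 98 of its 109 Utx-cKO counts. The layers above had larger ratios, 1.71 (1.20 to 2.25) in spinous cells and 2.455 (2.04 to 2.89) in granular cells. The defensin gene Defb1, of the same list of epithelial immunity genes, was called lower and is described with the lower genes. Chil4, of the chitinase-like family, was at 0.95. Sox17 and the phospholipid transfer gene Pltp, at 0.91 and 0.77, had each Utx-cKO strip above each WT strip, but Pltp was at 0.57 without Utx-cKO strip 2. Sox17 rests on 49 and 75 counts.

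Among the named lower genes, several rest on WT strip 3. Ptgds, a prostaglandin D synthase, had 318, 428, 1001 and 460.3 CPM in WT strips and 156, 106, 285 and 365 CPM in Utx-cKO strips (-1.32, -1.82 to -0.83), and -0.68 without WT strip 3. Ptgds was mostly in deep cells, where the strips did not overlap (-1.34, -1.88 to -0.83). Without WT strip 3, Defb1 went from -0.91 to -0.20, and the barrier lipoxygenase gene Aloxe3 from -0.95 to -0.30. The ceramide synthase gene Cers3 went from -0.87 to -0.58 and Phlda1 from -0.77 to -0.44. The steroid reductase gene Srd5a1 was at -0.88, and -0.54 without Utx-cKO strip 3. Defb1 lay mostly in upper cells, with 326 and 125 counts, against 19 and 24 counts in deep cells. Aloxe3 and the transglutaminase gene Tgm3, which was called lower but turned without WT strip 3 (from -1.45 to 1.34), are granular markers. The 12 granular markers on the panel summed to 10185 to 20030 CPM over WT strips and 7590 to 17532 CPM over Utx-cKO strips, but 5 of them are genes of the rule, which limits their sum in members. Their part in these ratios was not tested.

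Genes whose strips did not overlap without reaching 1.5-fold included Axl, a receptor tyrosine kinase. It had 2700.1, 2321, 2415 and 3222 CPM in WT strips and 2065, 2189, 1337 and 1614 CPM in Utx-cKO strips (-0.57, -0.77 to -0.37). In upper cells Axl was past 1.5-fold (-0.86, -1.16 to -0.56), again with no overlap of strips. Gpx1 and Prdx5, which encode peroxide-removing enzymes, were at -0.42 (-0.59 to -0.24) and -0.40 (-0.61 to -0.18). Duox1, which makes hydrogen peroxide, was at -0.48 (-1.02 to 0.05).

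Other genes called higher included Acsl4, Atf3, Cd68, Cstdc5, Krt7, Slc7a11, Slc8a1, Smad7, Stfa1, Tfrc, Tmem176a and Tyrobp. Smad7 and the cystine transporter gene Slc7a11, at 0.76 and 0.75, stayed past 1.5-fold without any 1 strip, while the stress factor gene Atf3 went from 1.09 to -0.13 without Utx-cKO strip 4. Lum, a fibroblast gene called lower, went from -0.62 to 0.02 without WT strip 3. The other lists held few called genes. Over all genes 8.61% were called higher and 4.3% lower, so the counts in lists this small tell little. Matrix genes gave 0 of 6, glycolysis and amino acid genes 0 of 4, and Wnt genes 0 of 2, with medians of 0.05, 0.11 and 0.07. Lipid and steroid enzymes gave 1 higher, Akr1c18, and 1 lower, Ptgds, of 9. Pkm, the last kinase of glycolysis, was at 0.50 over all members and 0.69 in upper cells, where the strips did not overlap, and 0.52 there without Utx-cKO strip 4. Markers of fibroblasts, which surround the follicles, summed to 1558 to 4960 CPM over WT strips and 978 to 3937 CPM over Utx-cKO strips, and macrophage markers to 248 to 825 CPM and 576 to 935 CPM. In members with no T cell, melanocyte, fibroblast or endothelial marker transcript, 3 of the 21 named genes other than Cd3e and Cd3g, namely Sprr2b, Igfbp2 and Phlda1, were under 1.5-fold, and 0 turned.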

How the data were processed

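Gene transcripts were measured with Xenium on 2 sections, 1 per group. Per the file headers, the deposited tables list each decoded transcript with a quality score and each cell with its transcript count; positions and areas have no stated unit there and were taken as µm. The sources used here name no decoding or segmentation software. Transcripts with a quality score of at least 20 were counted per cell, and cells of at least 20 transcripts were kept. No doublet caller was run. CPM divides by all panel transcripts of the cells compared. Ratios carry exact binomial (Clopper-Pearson) 95% intervals for counting error only. Differences between upper and deep log2 ratios carry a normal 95% interval on the log scale, also for counting error only. Strips were found as connected groups of at least 1000 cells linked within 100 µm. They were numbered by mean x position within each section by itself, so the same number in both sections does not mark matching strips. For shares of cells with a transcript, each cell was thinned to 20 transcripts in 1 random draw per section, whose own noise the intervals leave out. An earlier draw, made separately for each set of cells, was replaced after its values were seen, and the mean over all possible draws was then added as an alternative.

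Members and gene lists were chosen with earlier results of these data known. Named genes were the 12 highest and 12 lowest ratios past 1.5-fold (11 were lower) among genes of at least 100 counts outside the rule, with the same direction without each strip, and 8 in each direction within a section. The genes of the rule, Kdm6a, Kdm6b, Kmt2a and list members could also be named. Counts of called genes include genes of the rule unless they are said to lie outside it. The ratio calculation was tested on simulated data. Alternatives changed the quality score, the limits on cells and markers, the scaling, the nucleus overlap, the count minimum and the strips left out. The split of Utx-cKO over WT into upper and deep cells and the comparison with deep Lhx2 or Tbx1 cells were added after the data were seen. Start regions came from RefSeq (GRCm38.p6), where 479 of 480 panel genes matched a symbol and 357 had a start region. Python 3.11.15, numpy 2.4.6, scipy 1.17.1 and pandas 2.3.3 were used. Results for some genes are not reported here.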

Additional observations from a re-analysis of the deposited data

How the results depend on the processing

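Each group was 1 section, so the intervals hold counting error alone, and depth limits ratios to genes of at least 100 counts. Of 23 named genes, 5 stayed past 1.5-fold in all 23 settings and 18 never changed sign. No paired analysis was possible because each group was 1 section and the groups share fewer than 2 replicate numbers. The causes of the changes that follow were not tested.

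The genes higher and lower in Utx-cKO numbered 11 and 48 as mean counts per cell and 6 and 7 after thinning to 20 transcripts, where fewer counts were left. The higher genes numbered 45 with a minimum of 50 counts, where more genes were compared, and 10 in deep cells only. The lower genes numbered 25 at a quality score of at least 30. Leaving out 1 strip gave 18 to 33 higher and 13 to 34 lower. Phlda1 turned to 0.017 at a quality score of at least 30, and Igfbp2, on 10 and 9 counts, to 0.11 over the nucleus only, and to 0.15 after thinning. In deep cells only, Igfbp3 was at 0.11 and Krt1 at -0.27. Sprr2a2 at -0.078 (50 and 43 counts), Defb1 at 0.48 (19 and 24) and Igfbp2 at 1.14 (4 and 8) were under the minimum of 100 counts there, too few to read a sign from. Over the nucleus only, 47 genes were higher in basal than in spinous cells, and 45 in upper than in deep cells.

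Members were 13.3% of kept WT cells and 12.3% of kept Utx-cKO cells with a marker sum of at least 3, 3.11% and 2.02% with at least 10, 10.8% and 10.1% in cells of at least 40 transcripts, and 14.8% and 13.99% after thinning. With markers at 10% of transcripts the WT share was 8.11%. Of marker keratinocytes, the shares were 35.2% and 30.3%, 14.9% and 8.88%, 27.8% and 22.0%, and 56.1% and 49.7% in the same order, and 27.7% in WT with markers at 10%. Leaving out 1 strip gave 8.59% to 9.89% and 7.43% to 8.56% of kept cells, and 28.6% to 29.7% and 22.2% to 24.2% of keratinocytes. T cell transcripts were in 8.18% and 4.58% of members without thinning, in 5.57% and 3.59% over the nucleus only, and in 3.16% and 1.72% as the mean over all possible draws of 20 transcripts.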
